A study of Mus musculus with 6 samples.

Results

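LIM homeobox, LIM-only and LIM-binding genes were examined in sorted male mouse germ cells with and without an intact Dnmt3A gene. The set holds 8 of the 54087 gene rows in the count files, taken by symbol: the LIM homeobox genes Lhx2, Lhx6, Lhx8 and Lhx9, the LIM-only genes Lmo1 and Lmo4, and the LIM-binding genes Ldb1 and Ldb2. Lhx8 and Lmo1 were picked because their counts were lower in the KO/KO libraries, so their values below describe that choice and carry no test. The other 6 were taken as relatives of these genes.

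The cells came from male C57BL/6 mice at 10 days post partum and carried an Id4-GFP reporter, whose bright and medium cells were taken by sorting as an approximation of spermatogonial stem cells, per the labels. Of the 6 libraries, 3 were labelled Dnmt3A WT/WT and 3 Dnmt3A KO/KO, and both genotypes carried the reporter and were sorted in the same way. Dnmt3A encodes a de novo DNA methyltransferase, and the comparison asks which RNAs differ when it is lost. The labels do not say how the knockout was made, whether a Cre driver was used, or whether each library came from a separate animal, and p-values therefore reflect only the spread among the samples given.

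LIM domains are zinc-binding folds that bind other proteins. LIM homeodomain proteins (LHX, ISL and LMX) join a pair of LIM domains to a DNA-binding homeodomain, whereas LIM-only (LMO) proteins have the LIM domains without one. LDB proteins self-associate and hold the LIM domains of both classes, and an LMO protein can therefore compete with a LIM homeodomain protein for LDB or bridge LDB to other factors such as TAL1 and GATA proteins. LHX8 is known for its need in early oocytes, where it works with the germ cell factors SOHLH1, SOHLH2, NOBOX and FIGLA, and for cholinergic neurons of the forebrain. LHX9 is known for its need in forming the gonad, LHX2 for hair follicle, eye and forebrain, LHX6 for cortical interneurons, and LMO1 as a T-cell leukaemia oncogene.

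The genes lie apart from each other in the genome (GRCm38, GENCODE M21). Lhx8 lies on chromosome 3 at positions 154306294 to 154330659 and Lmo1 on chromosome 7 at 109138572 to 109175207, both on the minus strand. Lhx2 (38339281 to 38369733) and Lhx6 (36081953 to 36105408) lie on chromosome 2, Lhx9 on chromosome 1 (138825186 to 138848577) and Lmo4 on chromosome 3 (144188530 to 144205220). Ldb1 lies on chromosome 19 (46031570 to 46045214) and Ldb2 on chromosome 5 (44472132 to 44799680). Exons of Lhx8 and Lmo1 overlap no other annotated exon. For Ldb1, exons of Pprc1 on the opposite strand cover 3.8% of its exon bases, and for Lhx6, Gm27953 on the same strand covers 2.2%.

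DNMT3A methylates cytosines in CpG pairs, and the stretches just upstream of the starts of Lhx8 and Lmo1 are printed because these genes stood lowest against WT/WT of all members and differ in CpG content. Both are from RefSeq (GRCm38.p6), read 5′ to 3′ on the minus strand, with each CpG in capitals. The first covers chr3:154330660-154330810 and was stopped at the outermost GENCODE start of Lhx8, 100 bases above the RefSeq start at 154330560. The second covers chr7:109175208-109175457, the 250 bases above the Lmo1 start at 109175207.
Lhx8: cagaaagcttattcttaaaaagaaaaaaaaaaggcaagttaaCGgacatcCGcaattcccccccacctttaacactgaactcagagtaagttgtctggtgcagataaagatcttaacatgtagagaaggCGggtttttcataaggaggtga
Lmo1: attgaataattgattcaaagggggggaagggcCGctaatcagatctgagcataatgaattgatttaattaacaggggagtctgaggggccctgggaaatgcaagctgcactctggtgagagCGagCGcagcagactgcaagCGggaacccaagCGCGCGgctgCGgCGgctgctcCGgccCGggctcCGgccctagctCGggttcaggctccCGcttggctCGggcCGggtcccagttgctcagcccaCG
The printed stretch of Lhx8 holds 3 CpG in 151 bases and that of Lmo1 holds 17 in 250 bases. DNA methylation was not measured in these libraries.

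RefSeq gave 15 start windows for 7 of the 8 members, each running from 250 bases before a start to 50 bases after it. The Lhx8 window held 4 CpG, a number that 38.0% of 32851 windows of all genes did not exceed, against a median of 7. The outermost Lmo1 window held 29, and those of Lmo4, Ldb1 and Lhx2 held 52, 41 and 34. Among the outermost windows, those of Lhx8 and Lhx9 (6 CpG) held the fewest. The only Lhx9 window has its start at 138842444, inside the gene. The outermost GENCODE start of Lhx9, at 138848577, had no window, so CpG there were not counted. On both strands, the E-box pattern CANNTG, the kind of site that SOHLH and TAL1 proteins bind with partners, had no match in the Lhx8 window and 1 in the outermost Lmo1 window, and 72.3% of all windows held it. The homeodomain core TAATTA had 1 match in each Lmo1 window and none in the other 13 member windows, and 5.3% of all windows held it. The Lmo1 windows overlap, and their match is the same site. A match is a description of the letters and not a bound site.

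**Figure D1:**
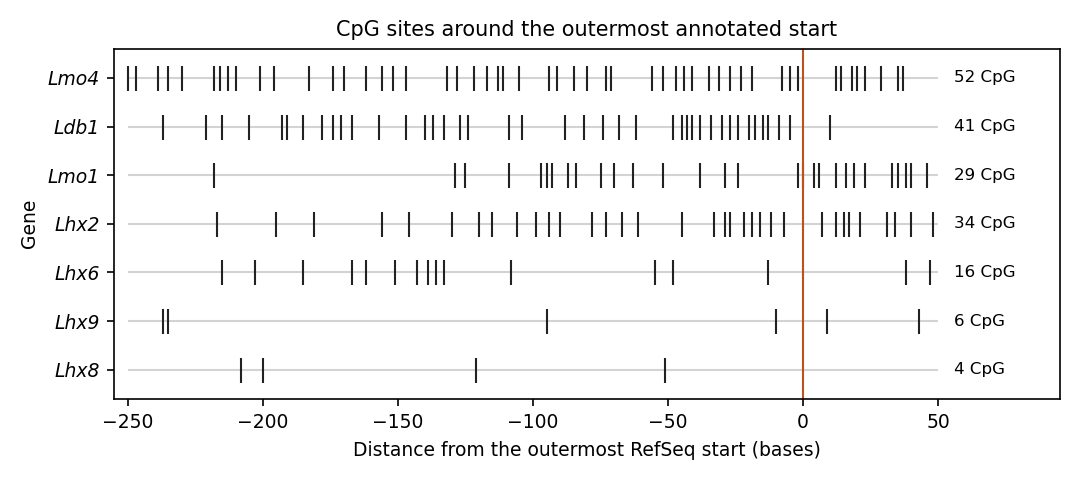
Each tick is a CpG at its distance in bases from the outermost RefSeq start of a member (vertical line at 0), over a window from 250 bases before the start to 50 after it. Lhx8 has 4 ticks and Lhx9 6, whereas Lmo1 has 29 and Lmo4 52. The Lhx9 start lies inside the gene, downstream of its outermost GENCODE start, and Ldb2 had no window.

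The total over gene rows ranged from 42681201 to 61749155 counts. Dnmt3a stood at 215, 193 and 188 CPM (counts scaled by gene totals and TMM factors) across WT/WT, against 90.2, 104 and 99.5 CPM across KO/KO, in the direction of the labels. Germ cell markers fixed for the check were at summed levels of 2357 to 2420 CPM across WT/WT, against 2101 to 2384 CPM across KO/KO, with Ddx4 at 363 CPM or more and Dazl at 305 CPM or more in every library. Within that list 2 of 10 rose and 3 fell, as given below beside the markers of differentiation. Counts of KO/KO replicate 1 differed from the other KO/KO libraries by a chi-square per degree of freedom of 36.3 and 37.1. They differed about as much from the WT/WT libraries (34.5 to 35.4). KO/KO replicates 2 and 3 differed more from each other (49.2), and by 69.7 to 90.0 from the WT/WT libraries. By this measure replicate 1 was the KO/KO library nearest to WT/WT, and not an outlier of a tight KO/KO group. The measure is taken on raw counts and grows with depth. Replicate 1 had the lowest gene total of the KO/KO libraries (43951664, against 47886897 and 61749155), and the part of depth was not tested. Calls and values of the members and other named genes that change without replicate 1 are given both ways. Of 21314 genes tested with edgeR's quasi-likelihood test, 14.8% passed at a Benjamini-Hochberg adjusted p under 0.05, 8.33% higher and 6.42% lower in KO/KO. Without any 1 of the WT/WT replicates these counts fell from 1776 higher and 1368 lower to at most 1083 and 663.

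Lhx8 was the most reduced member. Lhx8 stood at 3.72, 4.55 and 6.18 CPM in the WT/WT libraries and at 0.961, 0.223 and 0.155 CPM in the KO/KO libraries. The genotypes did not overlap, and KO/KO replicate 1 kept more Lhx8 RNA than the other KO/KO libraries. In raw counts these were 163, 219 and 252 reads against 43, 11 and 10 reads. The exact 95% Poisson intervals, which cover counting error only, ran from 31.1 to 57.9 for 43 reads and from 4.80 to 18.4 for 10 reads, so the gap between KO/KO replicates 1 and 3 was larger than counting error. Relative to the WT/WT mean, Lhx8 was at 19.9% in KO/KO replicate 1, 4.63% in replicate 2 and 3.22% in replicate 3. The fitted log2 fold change was -3.48 (SE 0.56, n = 3 per genotype), or 11.2-fold lower, and it was -4.67 without KO/KO replicate 1. These are bulk libraries of a sorted pool, in which fewer cells with Lhx8 RNA and less Lhx8 RNA per cell cannot be told apart.

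Lmo1 was reduced in every KO/KO library, with 44, 34 and 83 reads in replicates 1, 2 and 3. It stood at 4.86, 4.20 and 7.16 CPM across WT/WT, against 0.983, 0.689 and 1.29 CPM across KO/KO, again with no overlap. In KO/KO it was at 18.2%, 12.7% and 23.8% of the WT/WT mean, and replicate 1 lay between the others. The fitted log2 fold change was -2.44 (SE 0.30, n = 3 per genotype), or 5.43-fold lower, and -2.43 without KO/KO replicate 1. Lhx8 and Lmo1 thus shared their direction but not their pattern among the KO/KO libraries, which was seen on 3 libraries and not tested.

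**Figure D2:**
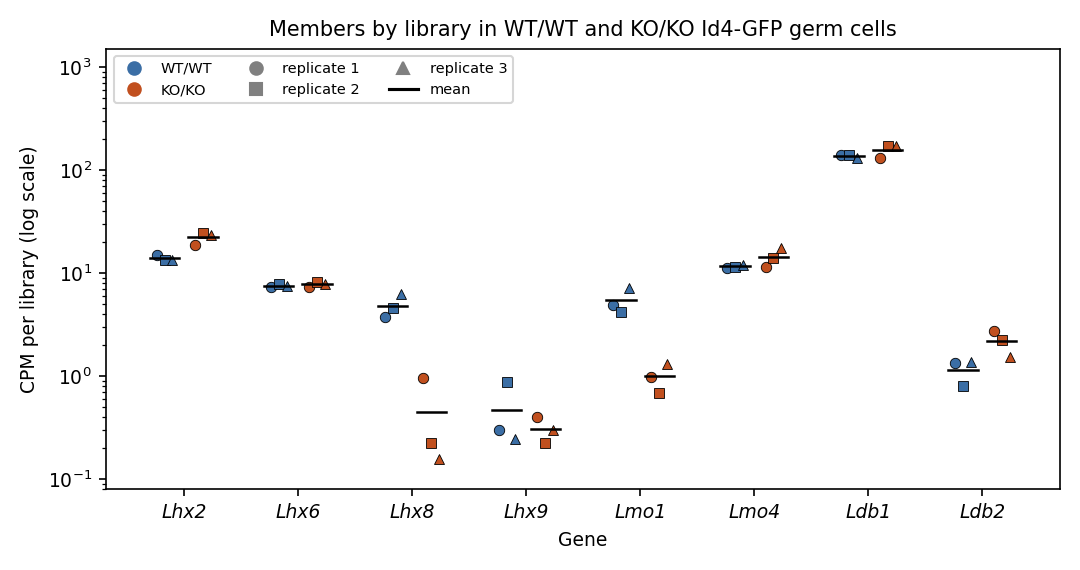
CPM of the 8 members in each library on a log axis, with circles, squares and triangles for replicates 1, 2 and 3 and a bar at the mean of each genotype. Lhx8 and Lmo1 lie lower in all 3 KO/KO libraries, Lhx2 and Ldb2 lie higher in all 3, and the other 4 members overlap.

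Among the other LIM homeobox members, Lhx2 rose. It stood at 14.9, 13.3 and 13.2 CPM across WT/WT, against 18.6, 24.5 and 23.1 CPM across KO/KO, so every KO/KO library lay above every WT/WT library. The log2 fold change was 0.68 (SE 0.14, n = 3 per genotype, edgeR adjusted p = 0.0102). Lhx2 did not pass without WT/WT replicate 2 (edgeR adjusted p = 0.0644) or without WT/WT replicate 3 (edgeR adjusted p = 0.0537), with log2 fold changes of 0.65 and 0.64.

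Lhx6, the closest relative of Lhx8 in the family, showed no such difference. Its CPM were 7.28, 7.79 and 7.52 in WT/WT and 7.35, 8.11 and 7.85 in KO/KO, a log2 fold change of 0.04 (SE 0.14, edgeR adjusted p = 0.874). Lhx9 was near the limit of detection, with 13, 42 and 10 reads in WT/WT and 18, 11 and 19 reads in KO/KO. The 42 reads of WT/WT replicate 2 (95% Poisson interval 30.3 to 56.8) lay above the intervals of all the other libraries. Lhx9 did not pass the test (log2 fold change -0.63, SE 0.59, edgeR adjusted p = 0.521), and without WT/WT replicate 2 the value was 0.17.

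The LIM-only member Lmo4 overlapped between genotypes. Lmo4, known as a cofactor in epithelial and neural tissue, stood at 11.2, 11.5 and 12 CPM across WT/WT, against 11.4, 14.0 and 17.3 CPM across KO/KO (a log2 fold change of 0.30, SE 0.16, edgeR adjusted p = 0.252). Per kilobase of exon, the ratio of Lmo1 to Lmo4 was 0.987, 0.828 and 1.36 in WT/WT and 0.196, 0.112 and 0.169 in KO/KO. Lmo1 and Lmo4 were thus at near equal levels per kilobase in WT/WT. In every KO/KO library Lmo4 was the more abundant, as the choice of Lmo1 for its fall implies.

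The LIM-binding genes differed in level. Ldb1, the widely expressed adaptor of the complex, stood at 141, 141 and 130 CPM across WT/WT, against 130, 172 and 169 CPM across KO/KO, and the genotypes overlapped through KO/KO replicate 1 (log2 fold change 0.19, SE 0.11, edgeR adjusted p = 0.276). Without that library Ldb1 passed at a log2 fold change of 0.32 (edgeR adjusted p = 0.0342). Pprc1, whose exons lie opposite to a small part of Ldb1, was lower in KO/KO (log2 fold change -0.26, edgeR adjusted p = 0.0497).

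Ldb2, the second LDB adaptor, did not pass the test, though each KO/KO library was above all WT/WT libraries. It stood at 1.32, 0.789 and 1.35 CPM across WT/WT, against 2.73, 2.25 and 1.52 CPM across KO/KO (a log2 fold change of 0.91, SE 0.33, edgeR adjusted p = 0.0954). Of all genes tested, 18.2% had all KO/KO libraries above all WT/WT libraries, and 17.5% had them all below. Without KO/KO replicate 3 Ldb2 passed at 1.13 (edgeR adjusted p = 0.0459). Summed endothelial markers were 36.9 to 43.8 CPM across WT/WT, against 124 to 162 CPM across KO/KO. Of 7 tested, 4 rose, Cdh5, Flt1, Kdr and Vwf, beside 8.33% higher over all genes. Pecam1, Tek and Egfl7 did not pass, at log2 fold changes of 0.16, -0.18 and 0.42. Among the KO/KO libraries, Ldb2 was highest in replicate 1, where Cdh5, Kdr and Vwf were lowest, whereas Flt1 was lowest in replicate 2. Pecam1 had the same order as Ldb2 (5.23, 3.77 and 3.12 CPM in KO/KO replicates 1, 2 and 3). Tek and Egfl7 were highest in replicate 3. The endothelial genes Tie1, Esam and Emcn were too low to test, with no library above 0.457 CPM. The part of these cells or genes in the Ldb2 value was not tested.

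Read over all members, 1 of 8 was called higher and 2 lower, beside 8.33% higher and 6.42% lower over all genes. The lower calls were the picked genes Lhx8 and Lmo1, so the count says nothing beyond the choice. The median log2 fold change of the 8 was 0.12, against 0.00 over all genes tested.

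Levels can be compared between members only per kilobase of exon. In WT/WT, Ldb1 was highest at 29.8 ± 1.35 CPM per kilobase (SD, n = 3), above every other member in every library. Lmo1 (3.48 ± 1.00), Lmo4 (3.28 ± 0.107) and Lhx2 (3.14 ± 0.223) followed, and neighbours in that order overlapped. Lhx8 (1.90 ± 0.494) and Lhx6 (1.57 ± 0.0527) came next and overlapped with each other, followed by Ldb2 (0.346 ± 0.0947) and Lhx9 (0.0496 ± 0.0367), which did not. In KO/KO the order was Ldb1 (34.1 ± 5.18), Lhx2 (5.02 ± 0.703), Lmo4 (4.04 ± 0.840), Lhx6 (1.62 ± 0.0801), Ldb2 (0.649 ± 0.182), Lmo1 (0.636 ± 0.193), Lhx8 (0.176 ± 0.176) and Lhx9 (0.0323 ± 0.00950). Here Lhx2 overlapped with Lmo4 and Ldb2 with Lmo1. Lmo1 and Lhx8 thus stood lower in the KO/KO order than in the WT/WT order, as their choice implies.

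Among the 4 LHX members, Lhx8 made up 22.9%, 27.5% and 34.7% of the summed CPM per kilobase in WT/WT and 6.13%, 1.19% and 0.878% in KO/KO, whereas the share of Lhx2 was 42.6% to 53.0% in WT/WT and 68.5% to 75.6% in KO/KO. The summed level of the 6 LHX and LMO members was 12.5 to 15 CPM per kilobase in WT/WT and 10.1 to 12.7 in KO/KO. Set against Ldb1, that sum was 0.415, 0.410 and 0.532 of the Ldb1 level in WT/WT and 0.357, 0.316 and 0.346 in KO/KO, lower in every KO/KO library. RNA for the adaptor therefore exceeded that for these 6 partners in every library. These sums hold the picked genes, leave out LIM factors outside the set, and carry no test. Among the factors left out, Lhx1 (25.1 to 47.5 CPM) and Isl1 (1.78 to 3.72 CPM) rose and Lmx1a (2.59 to 0.208 CPM) fell. The lower ratio thus holds for these members and was not measured for all partners of LDB1.

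Genes of the germ cell network in which LHX8 is known to act included more falls than rises. Of 8 tested members of this list, 4 fell and 1 rose, beside 6.42% lower and 8.33% higher over all genes. The median log2 fold change was -0.73. The helix-loop-helix factor genes Sohlh1 (43.0 ± 2.81 to 24.4 ± 2.76 CPM) and Sohlh2 (56.9 ± 11.3 to 25.5 ± 8.19 CPM) fell by 0.82 and 1.16 on the log2 scale (SE 0.11 and 0.22, edgeR adjusted p = 0.00194 and 0.00717). Nobox, a homeobox gene of oocytes, stood at 1.35, 2.18 and 1.96 CPM across WT/WT, against 0.514, 0.345 and 0.403 CPM across KO/KO (a log2 fold change of -2.12, SE 0.34, edgeR adjusted p = 0.00358). The receptor gene Kit, known as a target of the SOHLH factors, stood at 118, 98.9 and 150 CPM across WT/WT, against 38.6, 5.63 and 8.44 CPM across KO/KO (a log2 fold change of -2.81, SE 0.59, edgeR adjusted p = 0.0129, and -4.11 without KO/KO replicate 1). These 4 passed under every alternative run. Zp3, a zona pellucida gene, was the 1 that rose (log2 fold change 1.08, edgeR adjusted p = 0.0434), but not without each WT/WT replicate or without KO/KO replicate 2 or 3 (edgeR adjusted p from 0.0820 to 0.143), nor under limma-voom (adjusted p = 0.0598). Figla, an oocyte transcription factor gene (-0.64, edgeR adjusted p = 0.173), and Taf4b (0.05, edgeR adjusted p = 0.752) did not pass, and Bmp15, Zp1, Zp2 and Oosp1 were too low to test.

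Markers of differentiating spermatogonia, a list that shares Kit, Sohlh1 and Sohlh2 with this network, included falls beside values of the other sign. Of 10 tested, 5 fell and the other 5 did not pass, beside 6.42% lower over all genes. The median was -0.99, with summed levels of 742 to 877 CPM across WT/WT, against 485 to 623 CPM across KO/KO. Beside those already named, Dmrtb1, a regulator of the switch from mitosis to meiosis, was at 34.1%, 8.42% and 13.9% of its WT/WT mean in KO/KO replicates 1, 2 and 3. Stra8, a retinoic acid response gene of the same stage, was at 72.6%, 26.0% and 35.5%, but did not pass without each WT/WT replicate or without KO/KO replicate 3 (edgeR adjusted p from 0.0708 to 0.0971), nor under DESeq2 on all libraries (adjusted p = 0.0608). Prdm1 and Rhox13 were above WT/WT in every KO/KO library at log2 fold changes of 1.03 and 0.49 without passing (edgeR adjusted p = 0.0600 and 0.0695), and DESeq2 called 2 genes of the list higher. Kit, Dmrtb1, Stra8, Sohlh2 and Lhx8 were all highest in replicate 1 among the KO/KO libraries. So were Sohlh1, Ccnd2 and Dnmt3b of the list, whereas Prdm1 and Upp1 were highest in replicate 2 and Rhox13 in replicate 3. Upp1 was below WT/WT in every KO/KO library without passing (log2 fold change -1.24, edgeR adjusted p = 0.0521).

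Among the germ cell markers, genes of stem and progenitor spermatogonia differed in the same libraries. Id4, whose reporter set the gate, stood at 36.9, 38.0 and 38.4 CPM in WT/WT libraries and 86.7, 176 and 159 CPM in KO/KO libraries (log2 fold change 1.89, edgeR adjusted p = 0.000814). Gfra1, the GDNF co-receptor gene, rose by 1.01 (edgeR adjusted p = 0.00127), with 99.8 to 121 CPM in WT/WT libraries and 196 to 273 CPM in KO/KO libraries. For both, KO/KO replicate 1 was the lowest of the KO/KO libraries. Zbtb16 and Uchl1 fell by 0.56 and 0.88 on the log2 scale (edgeR adjusted p = 0.00430 and 0.00167). Sall4, another progenitor gene, fell by 0.36 on the log2 scale (edgeR adjusted p = 0.0485), a call that ended with RLE or upper quartile factors, with the filter at 1 CPM, and without any 1 library other than KO/KO replicate 2 (edgeR adjusted p from 0.0502 to 0.171). The part of these differences in cell stage in the Lhx8 and Lmo1 values was not tested.

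**Figure D3:**
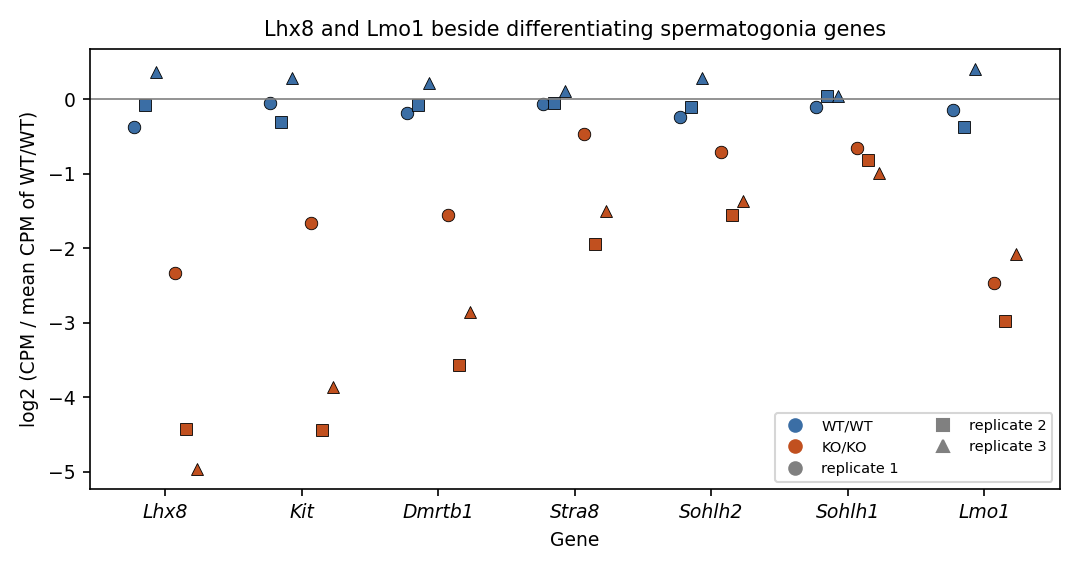
Log2 of the CPM of each library over the WT/WT mean for Lhx8, the 5 genes that fell among markers of differentiating spermatogonia, and Lmo1. Circles, squares and triangles are replicates 1, 2 and 3. In KO/KO, replicate 1 lies above the others for each gene except Lmo1, where it lies between them.

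The genes whose pattern over the 6 libraries was most like that of a member were found by the root mean square difference of log2 CPM, each gene centred on its own mean, among 11806 genes whose average log2 CPM was 1 or more. For Lhx8 the nearest included Crybg3 (0.42), Kit (0.44), Tcea3 (0.60) and Gli2 (0.65). Each was also highest in replicate 1 among the KO/KO libraries, a trait that their choice by likeness to Lhx8 favours. For Lmo1 they were Slc29a4 (0.23), Myh3 (0.28), Acaa1b (0.29), Gdf10 (0.30) and Podxl (0.31), at larger values than Lmo1 itself for Myh3 (15.8 ± 1.07 to 2.31 ± 0.767 CPM) and Podxl (47.6 ± 7.42 to 8.34 ± 2.09 CPM). Lhx8 and Lmo1 were 1.10 apart by this measure, and Lmo1 ranked 57 among the genes nearest to Lhx8, whereas Lhx8 ranked 1609 among those nearest to Lmo1.

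Elsewhere in the LIM homeobox and LIM-only families, 2 of 7 tested genes rose and 1 fell, beside 8.33% higher and 6.42% lower over all genes. The median log2 fold change was 0.08. Lmx1a, known from dopaminergic neurons and the roof plate, stood at 2.08, 2.99 and 2.7 CPM across WT/WT, against 0.179, 0.182 and 0.264 CPM across KO/KO. Its log2 fold change of -3.60 (SE 0.34, edgeR adjusted p = 0.000323) was as large as that of Lhx8, and it passed under every alternative run. Lhx1, known in stem spermatogonia as a gene induced by GDNF, went the other way, from 23.2, 25.5 and 26.7 CPM to 39.9, 44.7 and 58.0 CPM (log2 fold change 0.92, SE 0.14, edgeR adjusted p = 0.00305). Isl1, known from motor neurons and heart, rose by 1.06 (SE 0.24, edgeR adjusted p = 0.0182), but not without WT/WT replicate 1 (edgeR adjusted p = 0.0745) or 3 (edgeR adjusted p = 0.0762). Lmo2, the LIM-only partner of TAL1 in blood cells, did not pass (1.73, 1.10 and 0.613 CPM against 1.65, 1.97 and 1.91 CPM, edgeR adjusted p = 0.25). Lhx5, Isl2 and Lmx1b did not pass either, and Lhx3, Lhx4 and Lmo3 were too low to test.

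Partners of LDB in its complexes included more rises than falls. Of 13 tested, 4 rose and 1 fell, beside 8.33% higher and 6.42% lower over all genes, with a median log2 fold change of 0.22. The blood lineage factor genes Tal1 (0.114 ± 0.0407 to 10.5 ± 3.16 CPM) and Gata2 (6.88 ± 0.817 to 35.6 ± 8.21 CPM) rose by 6.50 and 2.37 on the log2 scale (SE 0.36 and 0.19, edgeR adjusted p = 2.26e-05 and 0.000152). Lyl1, a relative of Tal1, rose by 2.34 (SE 0.47, edgeR adjusted p = 0.0103), but not without WT/WT replicate 2 (edgeR adjusted p = 0.0556). The E-protein genes Tcf3 and Tcf12, whose products pair with TAL1, did not pass, at log2 fold changes of 0.09 and -0.07 (edgeR adjusted p = 0.440 and 0.637).

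The single-stranded DNA-binding proteins that stabilise LDB1 gave small values of both signs. Ssbp3 stood at 157, 146 and 141 CPM across WT/WT, against 178, 203 and 188 CPM across KO/KO (log2 fold change 0.35, edgeR adjusted p = 0.0182, and 0.0972 and 0.0907 without WT/WT replicate 2 or 3). Ssbp4 was at 42.9, 45.5 and 49.0 CPM against 36.3, 34.7 and 36.3 CPM (log2 fold change -0.36, edgeR adjusted p = 0.0315) and lost its call without any 1 library (edgeR adjusted p from 0.0557 to 0.138). Rlim, a ubiquitin ligase that targets LDB proteins, and Ssbp2 did not pass.

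**Figure D4:**
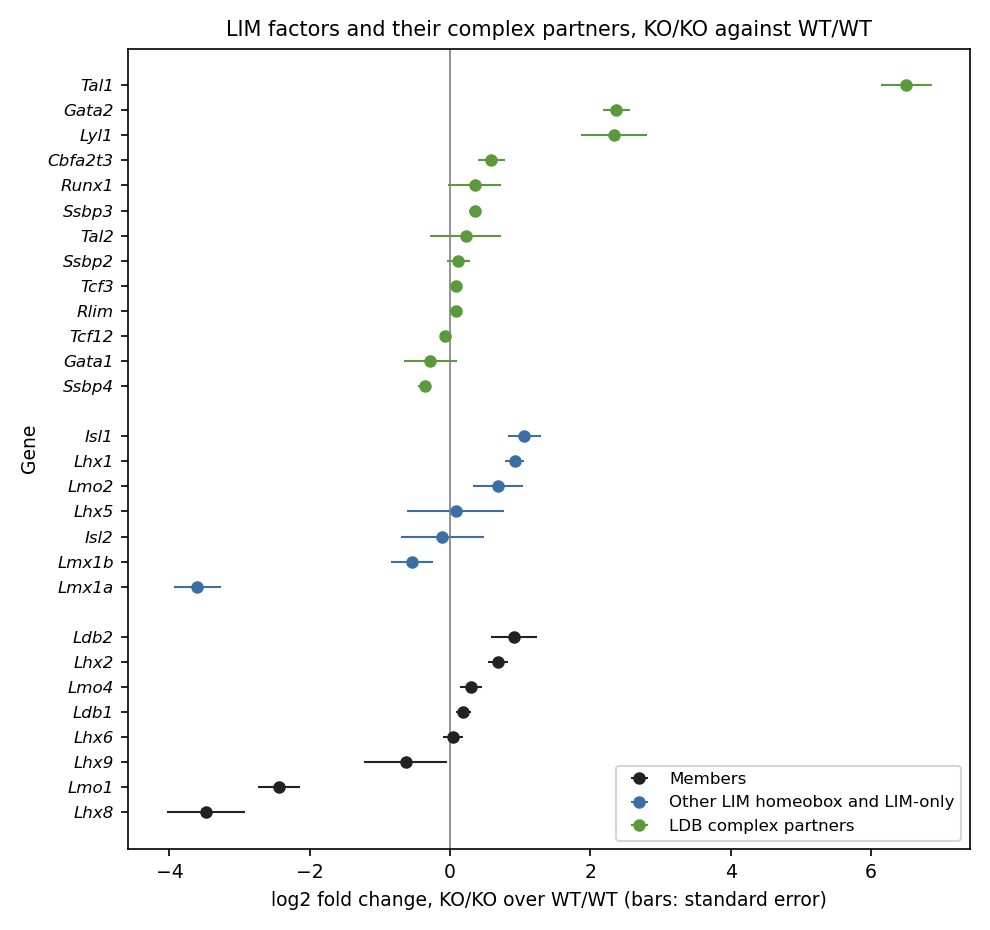
Log2 fold changes of KO/KO over WT/WT with their standard errors for the 8 members, 7 other LIM homeobox and LIM-only genes and 13 LDB partners that were tested. Lhx8, Lmo1 and Lmx1a lie far to the left, Tal1, Gata2 and Lyl1 far to the right, and most others near 0.

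LIM domain proteins of the cytoskeleton and cell junctions differed in both directions. Of 28 tested, 4 rose and 1 fell, beside 8.33% higher and 6.42% lower over all genes, and the median log2 fold change was 0.01, with 15 values above 0 and 13 below. Ablim1, an actin-binding protein gene, rose by 1.34 (SE 0.20, edgeR adjusted p = 0.00276). Csrp1 and Pdlim1 rose by 0.65 and 1.38, each losing its call without WT/WT replicate 1 (edgeR adjusted p = 0.0733 and 0.0720) or 3 (edgeR adjusted p = 0.0771 and 0.0661), and Csrp1 also without WT/WT replicate 2 (edgeR adjusted p = 0.0678). Lasp1, an actin-binding gene of focal contacts, fell by 0.41 on the log2 scale (edgeR adjusted p = 0.0357), but not without WT/WT replicate 1, 2 or 3 or without KO/KO replicate 1 or 3 (edgeR adjusted p from 0.0513 to 0.129). Without each WT/WT replicate, 2, 2 and 1 genes of this list rose.

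Genes that act with Lhx9 in the early gonad included 3 falls among 7 tested, beside 6.42% lower over all genes, with a median of -0.36. Six4 (24.9, 25.5 and 30.9 CPM to 12.1, 6.69 and 6.2 CPM) and the Polycomb gene Cbx2 (67.9, 71.0 and 75.8 CPM to 53.7, 37.9 and 44.2 CPM) fell by 1.71 and 0.66 on the log2 scale (edgeR adjusted p = 0.00194 and 0.00780). The gonadal somatic genes Wt1, Nr5a1 and Gata4 did not pass and overlapped between genotypes.

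Somatic cells, in which Lhx9 and Lhx2 are known from the developing gonad, were traced by their own markers. Over all genes tested, 8.33% were higher and 6.42% lower. Summed Sertoli cell markers were 510 to 769 CPM across WT/WT, against 577 to 859 CPM across KO/KO, and 1 of 10, Rhox5, rose. Ctsl did not pass (edgeR adjusted p = 0.0762), but was called higher without KO/KO replicate 1 (edgeR adjusted p = 0.0415) or 2 (edgeR adjusted p = 0.0407). Summed Leydig and stromal markers were 94.3 to 115 CPM across WT/WT, against 42.2 to 61.7 CPM across KO/KO, with Lum and Insl3 near 0. Col1a1 and Pdgfra fell among 9 tested, and all 9 had log2 fold changes below 0. Most of the difference in the sum was in Col1a1, which went from a mean of 66.3 to 24.3 CPM. Col1a2 (6.92 to 6.32 CPM) and Star (5.30 to 4.06 CPM) overlapped between genotypes and did not pass. Pdgfra lost its call without WT/WT replicate 1 (edgeR adjusted p = 0.0924) or 2 (edgeR adjusted p = 0.106), and Cyp11a1 gained one without KO/KO replicate 3 (edgeR adjusted p = 0.0401). Summed myoid markers were 24.6 to 37.9 and 40.9 to 48.1 CPM, and that difference was carried by Smtn, which rose from a mean of 18.8 to 34.9 CPM. The other 4 tested myoid markers, Acta2, Myh11, Tagln and Des, had log2 fold changes below 0 (-0.22, -0.66, -0.08 and -1.37) and did not pass. Myh11 passed as lower without WT/WT replicate 3 (edgeR adjusted p = 0.0119). Summed macrophage markers were 1.32 to 2.26 and 3.83 to 4.82 CPM, with Cd68 rising and Adgre1, Csf1r, C1qa and Lyz2 at or near 0. The part of these cells in the values of Lhx2 and Lhx9 was not tested.

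The nearest protein-coding genes on each side of the members were chosen by position alone. Of 14 tested, 2 were lower and 0 higher in KO/KO, against 6.42% lower and 8.33% higher over all genes, and nothing particular to the neighbours is read from so few. Stk33, a kinase gene 104.0 kb from Lmo1, stood at 1.85, 1.33 and 1.57 CPM across WT/WT, against 0.670, 0.750 and 0.667 CPM across KO/KO (log2 fold change -1.18, edgeR adjusted p = 0.0259), a call that ended on leaving out any WT/WT replicate, or KO/KO replicate 1 or 3 (edgeR adjusted p from 0.0508 to 0.110). Ric3, on the other side of Lmo1 at 55.2 kb, did not pass (0.14, edgeR adjusted p = 0.570). Tyw3, the nearest tested neighbour of Lhx8 at 245.8 kb, did not pass (log2 fold change 0.29, edgeR adjusted p = 0.187), and Slc44a5, at 34.6 kb on its other side, was too low to test. Nolc1, a nucleolar gene 30.6 kb from Ldb1, was the other lower gene (-0.40, edgeR adjusted p = 0.0219), and not without WT/WT replicate 2 or 3 or KO/KO replicate 3 (edgeR adjusted p from 0.0567 to 0.0911).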

How the data were processed

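RNA was measured in 3 WT/WT and 3 KO/KO samples. The authors deposited unnormalised counts for each gene. The submitters' processing notes name STAR 2.7.0a, featureCounts 1.5.1 and the mm10 build. Annotation, strandedness of counting and multi-mapped reads: not given in the sources used here. Libraries were made with a SMARTer stranded kit, per the labels. The 1205 transposable element rows were left out of totals and tests.

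Gene counts were tested with edgeR 4.0.16 in R 4.3.3 (filterByExpr, TMM, quasi-likelihood F test, two-sided, Benjamini-Hochberg over 21314 genes, threshold 0.05), with genotype as the only term. CPM used gene totals and TMM factors, and the SE is the size of the log2 fold change divided by the square root of F. The fit was tested on simulated data. Members and lists were chosen with earlier results of these data known. Named genes were the members, up to 4 genes per list with the smallest p, and the 5 nearest patterns to Lhx8 and Lmo1; other called list genes, and neighbours by position, were added after their values were seen. Some genes that these rules take are not reported here. Exon lengths are merged GENCODE M21 exons. Promoter windows of 1 chromosome were not used. Other settings run were upper quartile and RLE factors, unfiltered genes, a minimum of 1 CPM in 3 libraries, DESeq2 1.42.0, limma-voom 3.58.1, a replicate block, all rows together, and leaving out each library.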

Additional observations from a re-analysis of the deposited data

How the results depend on the processing

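All values of Lhx8 (-4.67 to -3.03 on the log2 scale) and Lmo1 (-2.68 to -2.19) under the 14 alternatives kept their sign. Of 111 member values, 105 kept their direction and their side of the threshold, or, for Lhx8 and Lmo1, moved by less than 1 SD; the exceptions are those of Lhx2, Lhx8, Lhx9, Ldb1 and Ldb2 given above. Signs reversed for Lhx9 (-0.94 to 0.17 on leaving out 1 library, 0.17 without WT/WT replicate 2) and for the log2 fold change of Acta2, a myoid marker (-0.22 in all libraries, 0.13 under limma-voom, -0.70 to 0.22 on leaving out 1 library, 0.22 without WT/WT replicate 2), none past the test, and the cause was not tested. Leaving out each library gave 814 to 1985 genes higher and 560 to 1380 lower, and 0 to 2 members higher, 0 being the loss of Lhx2 in edgeR without WT/WT replicate 2 or 3, where 1 and 2 members were higher at an unadjusted p under 0.05; DESeq2 and limma-voom on all libraries each called 1. Over the 5 pathway lists it gave 5 to 11 genes higher, against 11 in all libraries. DESeq2 called 2230 genes higher and 1703 lower, and no filter on low counts gave 2575 and 1914.

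With replicate number as a block, 1467 genes were higher and 1107 lower, and 1 member was higher and 2 lower, as without it. The block ended the calls of Ssbp4, Zp3, Lasp1 and Stk33 (edgeR adjusted p from 0.0582 to 0.0852) and added that of Cyp11a1 (-1.82, edgeR adjusted p = 0.0322). With it, 4 Leydig and stromal markers were lower in place of 2, and 1 marker of differentiating spermatogonia was higher and 6 lower in place of 0 and 5. Same-numbered libraries did not deviate together (correlations of -0.079, 0.037 and 0.012), so the numbers were not taken as pairs. Lhx9, with at most 42 reads, is limited by depth, and it was not tested under the filter at 1 CPM.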
